A study of Homo sapiens with 6 samples.

Results

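Expression of 40 genes of G2 and mitosis was described in RNA-seq of 3 human cell lines. The genes were chosen by symbol with no measured value as a criterion, although earlier results of these data were known, and each was matched to 1 Ensembl gene among 61498. RPMI-8226-R is the derivative of RPMI-8226 that is resistant to the proteasome inhibitor bortezomib. RPMI-8226 is a line from multiple myeloma, a tumour of plasma cells, and serves as the parent. NCI-BL2171 is the third line, and all 3 are labelled B lymphocytes. Each line gave 2 libraries of total RNA freed of ribosomal RNA, and every library is labelled as untreated. The labels name no drug in the medium of RPMI-8226-R and give no clone number. Whether both libraries of a line stem from 1 culture is not stated, so p-values reflect only how these libraries vary, and that variation may be technical.

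The enzyme that brings a cell from G2 into mitosis is CDK1 bound to cyclin A or cyclin B. CDC25 phosphatases switch it on, and PLK1 and the Aurora kinases work beside it to build the spindle and to attach chromosomes. The anaphase-promoting complex with its activator CDC20 then marks cyclin B and securin for the proteasome, so that sister chromatids part and the cell leaves mitosis. Most of the 40 genes are transcribed late in the cell cycle under B-MYB and FOXM1, which act with the MuvB complex at a promoter element called the CHR, whereas the DREAM complex represses them in resting cells. In a bulk sample, a smaller share of cells in G2 and mitosis and less of an mRNA per such cell cannot be told apart.

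The 6 libraries held 23952370 to 29052199 reads. Levels are given in TPM, which take gene length into account, with 1 value per library. Differences are log2 fold changes of normalised read counts (CPM), as estimate ± SE from edgeR's quasi-likelihood test with 2 libraries per line, and a gene was called higher or lower where the p-value adjusted over 20081 genes was below 0.05. The libraries labelled NCI-BL2171 went against their label. JCHAIN, TNFRSF17, IRF4, MZB1, POU2AF1, MS4A1 and PAX5, which mark B cells or plasma cells, were at 0 TPM in both of them. The summed TPM of 8 genes of the red cell lineage was 47094 and 45171 there, against 104 and 115 in RPMI-8226-R and 33.5 and 36.1 in RPMI-8226. Of these 8 genes, 7 were lower and 1 was higher in each RPMI line than in the libraries labelled NCI-BL2171. The summed TPM of 9 plasma cell genes was 33677 and 34762 in RPMI-8226-R and 55254 and 57874 in RPMI-8226, against 47.9 and 50.7 in the libraries labelled NCI-BL2171. The 7 B cell genes summed to 134 and 140.3 TPM in RPMI-8226-R and 5446 and 5606 TPM in RPMI-8226, most of it CD74, the MHC class II chaperone, against 5.07 and 5.08 TPM in the libraries labelled NCI-BL2171. Single B cell genes were split. Of the 6 that were tested, 2 were higher and 3 lower in RPMI-8226-R than in the libraries labelled NCI-BL2171. In RPMI-8226, 3 were higher and 2 lower. Some B cell genes were thus higher in the libraries labelled NCI-BL2171, within their low sum. The 5 T cell genes stayed at or below 6.71 summed TPM and the 5 myeloid genes at or below 76.1 in every library. The part of these differences in cell type in the comparisons with the libraries labelled NCI-BL2171 was not tested.

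Of the 40 genes, 39 passed the filter on low counts and were tested. UBE2C, the ubiquitin-conjugating enzyme of the anaphase-promoting complex, had 0 to 3 reads per library and was not tested. The 39 genes were transcribed in all 6 libraries, from 381 reads for the lowest gene to 19661 for the highest. BUB1 had the highest level in the 4 RPMI libraries and PTTG1 in the libraries labelled NCI-BL2171. The order of the 39 mean levels was alike between lines, with Spearman coefficients of 0.91 for RPMI-8226-R with RPMI-8226, 0.81 for RPMI-8226-R with the libraries labelled NCI-BL2171 and 0.89 for RPMI-8226 with those libraries, a description across genes. The mean level was highest in RPMI-8226 for 16 genes, in RPMI-8226-R for 13 and in the libraries labelled NCI-BL2171 for 10. Chromosomes 1, 5, 15 and 20 carry 5 of the 40 genes each.

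**Figure D1:**
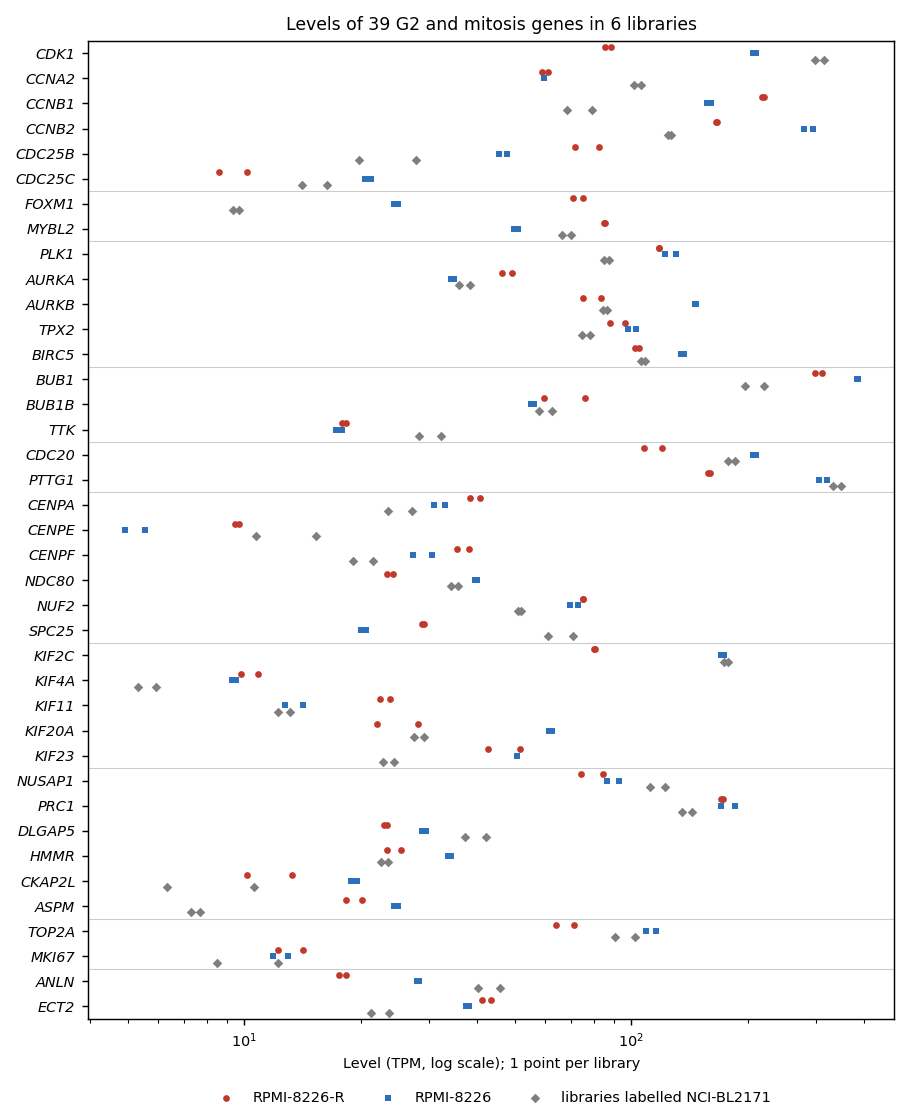
Level of each of the 39 tested genes in TPM on a log axis, with 1 point per library (RPMI-8226-R red circles, RPMI-8226 blue squares, libraries labelled NCI-BL2171 grey diamonds) and grey lines between groups of genes by role. Points of a line lie close together for most genes, but less so for CENPE, CKAP2L, MKI67 and CDC25B in the libraries labelled NCI-BL2171. CDK1, FOXM1 and SPC25 are among the genes whose lines stand widest apart.

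How the resistant derivative differs from its parent is the first question of the design. Of the 39 genes, 8 were higher in RPMI-8226-R, 24 were lower and 7 did not pass. Over all 20081 genes 65.6% were called, 28.5% higher and 37.2% lower. The median log2 fold change was -0.34 over the 39 genes and -0.12 over all genes. At a change of 2-fold or more, 9 genes were lower, namely KIF20A, CDK1, CDC25C, KIF2C, PTTG1, AURKB, CDC20, CCNB2 and TOP2A, and FOXM1 alone was higher. Over all genes, 33.3% were called at 2-fold or more. The TPM of the lines did not overlap for 34 of the 39 genes, against 77.7% of all genes. On the log2(TPM + 1) scale the whole comparison moved by 0.36 for the median gene and by 0.34 for the median of the 39, and the split became 10 higher and 16 lower, against 7062 higher and 4584 lower over all genes. Relative to all genes, the median of the 39 was -0.22 in CPM and -0.19 in log2(TPM + 1).

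**Figure D2:**
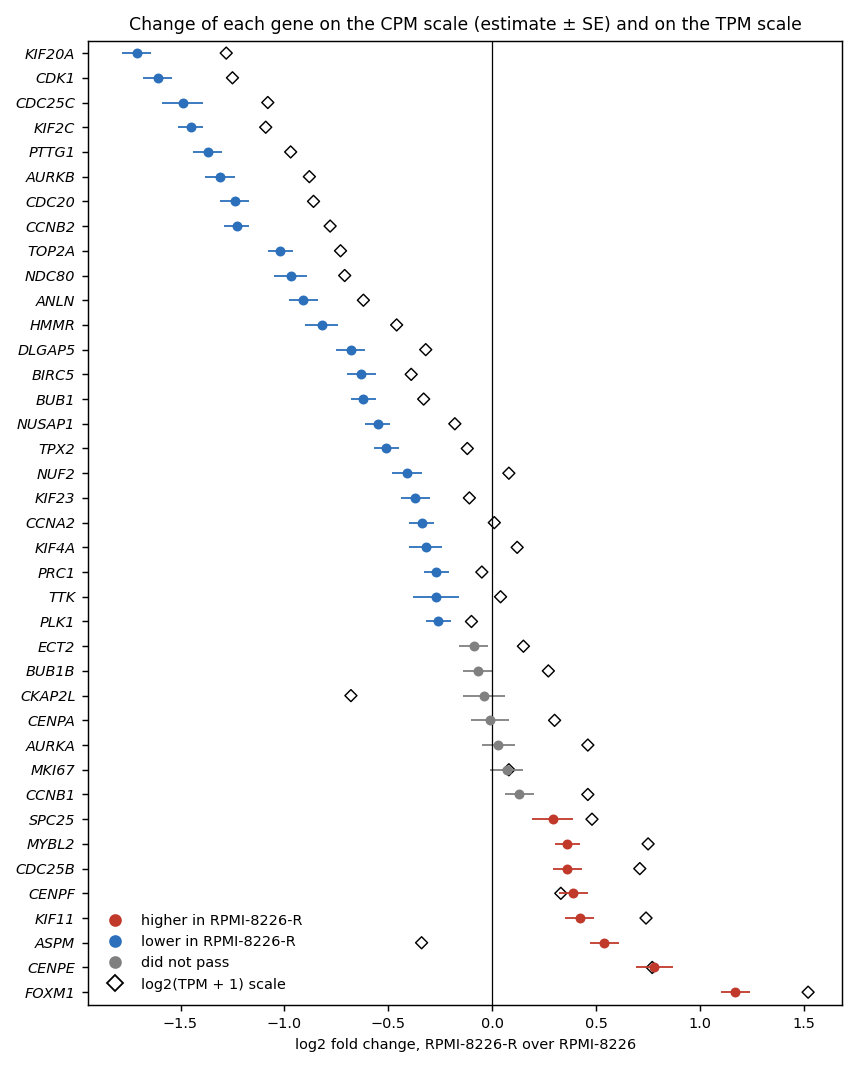
Log2 fold change of each of the 39 genes in RPMI-8226-R over RPMI-8226, as CPM estimate ± SE (circles; red higher, blue lower, grey did not pass) and on the log2(TPM + 1) scale (open diamonds). The estimates run from -1.71 for KIF20A to 1.17 for FOXM1, most diamonds lie to the right of their circles, and those of ASPM, CKAP2L, CENPF and CENPE lie to the left.

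Promoter sequences, each 250 bases before to 50 after the start and taken from RefSeq on GRCh38.p14, were found for 34 of the 40 genes, in 44 windows. FOXM1, AURKA, TPX2, BIRC5, TTK and UBE2C had no entry. The motifs searched on both strands were the CHR (TTTGAA or TTCGAA), the CCAAT box (CCAAT), an E2F motif (TTCCCGC or TTGGCGC) and an E-box (CACGTG). No motif contains another, although TTGGCGC can overlap a CCAAT box on the other strand. A CHR was found for 76.5% of the 34 genes, against 19.5% of 27305 genes with a promoter. The CCAAT box was found for 79.4% of the 34 and 39.7% of all, the E2F motif for 20.6% and 11.0%, and the E-box for 17.6% and 8.77%. In the 50 bases before the start, a window chosen after the data were seen, the CHR was present for 41.2% of the 34 genes and 3.06% of all. These letters are a description and not evidence that a factor is bound. Promoters of 4 genes that fell by 2-fold or more in RPMI-8226-R are printed below with those of CCNB1, which did not pass, and PLK1, which fell by less, to set genes that changed by different amounts side by side. Capitals mark the matches of any of the 4 motifs on either strand, so that CHR also reads TTCAAA and the CCAAT box ATTGG.
CDK1: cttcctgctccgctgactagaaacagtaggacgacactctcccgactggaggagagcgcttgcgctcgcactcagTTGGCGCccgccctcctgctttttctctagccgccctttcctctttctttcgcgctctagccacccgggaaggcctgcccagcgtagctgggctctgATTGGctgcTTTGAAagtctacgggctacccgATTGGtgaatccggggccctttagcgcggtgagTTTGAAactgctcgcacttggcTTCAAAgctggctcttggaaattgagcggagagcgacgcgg
CCNB2: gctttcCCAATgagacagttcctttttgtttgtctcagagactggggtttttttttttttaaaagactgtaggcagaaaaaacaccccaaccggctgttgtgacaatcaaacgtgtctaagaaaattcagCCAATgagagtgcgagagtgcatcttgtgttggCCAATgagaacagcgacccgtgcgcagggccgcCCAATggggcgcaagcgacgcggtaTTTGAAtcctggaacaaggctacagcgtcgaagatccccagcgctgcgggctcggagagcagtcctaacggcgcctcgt
CDC20: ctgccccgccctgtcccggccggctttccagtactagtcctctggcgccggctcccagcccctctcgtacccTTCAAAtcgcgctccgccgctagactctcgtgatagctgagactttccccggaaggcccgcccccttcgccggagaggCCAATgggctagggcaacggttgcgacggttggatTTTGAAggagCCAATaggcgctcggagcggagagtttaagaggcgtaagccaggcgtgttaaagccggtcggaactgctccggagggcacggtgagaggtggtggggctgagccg
KIF20A: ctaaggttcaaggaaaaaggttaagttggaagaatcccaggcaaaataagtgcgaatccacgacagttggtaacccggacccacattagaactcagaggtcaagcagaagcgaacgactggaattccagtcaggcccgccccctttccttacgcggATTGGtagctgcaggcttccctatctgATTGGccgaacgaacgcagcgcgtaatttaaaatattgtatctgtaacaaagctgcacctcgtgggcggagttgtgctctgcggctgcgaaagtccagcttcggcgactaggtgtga
CCNB1: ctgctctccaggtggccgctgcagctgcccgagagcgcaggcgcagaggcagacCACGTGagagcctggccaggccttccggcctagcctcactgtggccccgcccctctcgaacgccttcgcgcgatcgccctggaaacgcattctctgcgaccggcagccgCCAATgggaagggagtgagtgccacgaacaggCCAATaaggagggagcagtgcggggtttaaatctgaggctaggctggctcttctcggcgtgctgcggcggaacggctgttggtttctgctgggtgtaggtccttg
PLK1: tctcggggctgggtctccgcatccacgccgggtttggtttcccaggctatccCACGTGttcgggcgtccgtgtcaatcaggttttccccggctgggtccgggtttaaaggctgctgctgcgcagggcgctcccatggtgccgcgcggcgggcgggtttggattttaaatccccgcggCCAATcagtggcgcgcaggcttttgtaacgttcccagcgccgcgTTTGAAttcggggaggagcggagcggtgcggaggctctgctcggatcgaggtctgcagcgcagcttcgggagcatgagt
All 6 are on the plus strand, at chr10:60778228-60778527 (CDK1), chr15:59104896-59105195 (CCNB2), chr1:43358731-43359030 (CDC20), chr5:138178862-138179161 (KIF20A), chr5:69166900-69167199 (CCNB1) and chr16:23678639-23678938 (PLK1). CDK1 has a second start with a window of its own that is not shown. The window printed is the one with more motif matches. The other carries 1 CHR match, 1 CCAAT box and 1 E2F motif. CCNB2 carries 4 CCAAT boxes and 1 CHR that begins 29 bases before the start. PLK1 carries 1 CCAAT box, 1 E-box and 1 CHR at the same distance as in CCNB2. CDK1 carries 3 CHR matches, 2 CCAAT boxes and 1 E2F motif in the window printed. CDC20 carries 2 CHR matches and 2 CCAAT boxes. KIF20A and CCNB1 have 2 CCAAT boxes each and no CHR in these letters, and CCNB1 has 1 E-box. Of the 26 genes with a CHR, 5 were higher in RPMI-8226-R than in RPMI-8226 and 16 were lower, with a median log2 fold change of -0.34. Of the 8 without, 2 were higher and 5 were lower, with a median of -0.82. Of all genes, 28.5% were higher and 37.2% lower, and the groups with and without a CHR were not compared by a test.

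CDK1 and its partners moved in different directions. CDK1, the catalytic subunit (ENSG00000170312.17; chromosome 10, 60778331 to 60794852), had 88.6 and 85.4 TPM in RPMI-8226-R, against 210.1 and 206 TPM in RPMI-8226 and 299 and 314 TPM in the libraries labelled NCI-BL2171. The 3 lines did not overlap, with RPMI-8226-R lowest. Its log2 fold change was -1.61 ± 0.07 (edgeR adjusted p = 2e-14) against RPMI-8226, a fall of 3.04-fold, and -1.96 ± 0.07 (edgeR adjusted p = 1.6e-16) against the libraries labelled NCI-BL2171. CCNB1, cyclin B1 (ENSG00000134057.15; chromosome 5, 69167010 to 69178245), lay at 219.9 and 218 TPM in RPMI-8226-R, 161 and 157 TPM in RPMI-8226 and 68.1 and 79.0 TPM in the libraries labelled NCI-BL2171. In CPM the difference between the RPMI lines did not pass, at 0.13 ± 0.07 (edgeR adjusted p = 0.081), whereas on the log2(TPM + 1) scale it was 0.46 (limma adjusted p = 0.0034). Against the libraries labelled NCI-BL2171, CCNB1 was higher in both lines, at 1.48 ± 0.07 (edgeR adjusted p = 1.9e-14) in RPMI-8226-R and 1.35 ± 0.07 (edgeR adjusted p = 1.1e-13) in RPMI-8226. CCNB2, cyclin B2 (ENSG00000157456.8; chromosome 15, 59105078 to 59125045), stood at 166 and 167 TPM in RPMI-8226-R, against 294 and 280.0 TPM in RPMI-8226 and 126 and 124 TPM in the libraries labelled NCI-BL2171. Every RPMI-8226 library lay above the other 4, and RPMI-8226-R was lower than its parent by edgeR, at -1.23 ± 0.06 (edgeR adjusted p = 5.1e-13).

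CCNA2, cyclin A2, which pairs with CDK2 in S phase and CDK1 in G2, was nearly level between the RPMI lines in TPM, at 58.7 and 60.9 in RPMI-8226-R and 59.6 and 59.4 in RPMI-8226, against 102 and 106 TPM in the libraries labelled NCI-BL2171. In CPM it was lower in RPMI-8226-R, at -0.34 ± 0.06 (edgeR adjusted p = 5.1e-05), and this direction was lost in log2(TPM + 1), at 0.01. CDC25B, the phosphatase that starts CDK1 activation at the centrosome (ENSG00000101224.18; chromosome 20, 3786772 to 3806121), had 71.3 and 82.4 TPM in RPMI-8226-R, 47.7 and 45.4 TPM in RPMI-8226 and 19.8 and 27.7 TPM in the libraries labelled NCI-BL2171. It was higher in RPMI-8226-R than in RPMI-8226, at 0.36 ± 0.07 (edgeR adjusted p = 5.7e-05), and the 3 lines were ranked without overlap. CDC25C, a nuclear phosphatase of the same family (ENSG00000158402.21; chromosome 5, 138285265 to 138338355), went the other way with 8.62 and 10.1 TPM in RPMI-8226-R, 21.3 and 20.5 TPM in RPMI-8226 and 16.3 and 14.1 TPM in the libraries labelled NCI-BL2171. Its log2 fold change was -1.49 ± 0.10 (edgeR adjusted p = 3.7e-11) against RPMI-8226. Both phosphatases were higher in RPMI-8226 than in the libraries labelled NCI-BL2171, by 1.19 ± 0.07 for CDC25B and 0.73 ± 0.10 for CDC25C.

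The genes of both transcription factors were higher in RPMI-8226-R than in its parent, as were 28.5% of all genes. FOXM1, a forkhead factor of late cell cycle genes (ENSG00000111206.13; chromosome 12, 2857681 to 2877155), had 70.5 and 75.0 TPM in RPMI-8226-R, against 25.0 and 24.4 TPM in RPMI-8226 and 9.35 and 9.68 TPM in the libraries labelled NCI-BL2171. The levels of the lines did not overlap. FOXM1 was 2.25-fold higher in RPMI-8226-R than in RPMI-8226, at 1.17 ± 0.07 (edgeR adjusted p = 2.3e-12). Against the libraries labelled NCI-BL2171 the log2 fold change was 2.76 ± 0.07 (edgeR adjusted p = 1.1e-18) in RPMI-8226-R and 1.60 ± 0.07 (edgeR adjusted p = 1.7e-14) in RPMI-8226. MYBL2, which encodes B-MYB (ENSG00000101057.16; chromosome 20, 43667019 to 43716496), had 84.9 and 85.3 TPM in RPMI-8226-R, 50.8 and 49.9 TPM in RPMI-8226 and 66.1 and 70.0 TPM in the libraries labelled NCI-BL2171. It was higher in RPMI-8226-R than in RPMI-8226, at 0.36 ± 0.06 (edgeR adjusted p = 2.9e-05), and lower in RPMI-8226 than in the libraries labelled NCI-BL2171, at -0.21 ± 0.06 (edgeR adjusted p = 0.004). Its small difference between RPMI-8226-R and the libraries labelled NCI-BL2171, 0.15 ± 0.06 (edgeR adjusted p = 0.033), was lost under 6 of 15 settings of the analysis, and its fall in RPMI-8226 did not pass without RPMI-8226 replicate 1 (-0.20, edgeR adjusted p = 0.055).

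Among the mitotic kinases and their partners, 4 of 5 were lower in RPMI-8226-R than in RPMI-8226 and 0 were higher. Of all genes, 37.2% were lower and 28.5% higher. AURKB, the kinase of the chromosomal passenger complex (ENSG00000178999.13; chromosome 17, 8204733 to 8210600), had 74.8 and 83.5 TPM in RPMI-8226-R, 146 and 147 TPM in RPMI-8226 and 84.6 and 86.7 TPM in the libraries labelled NCI-BL2171. RPMI-8226 stood above the other 4 libraries, and the log2 fold change of RPMI-8226-R against it was -1.31 ± 0.07 (edgeR adjusted p = 4.9e-13). BIRC5, or survivin, another member of the complex, had 105 and 102 TPM in RPMI-8226-R, 137 and 135 TPM in RPMI-8226 and 108 and 106 TPM in the libraries labelled NCI-BL2171, and was lower in RPMI-8226-R than in RPMI-8226 by the same test, at -0.63 ± 0.07 (edgeR adjusted p = 5.5e-08). PLK1, which acts at centrosomes and kinetochores (ENSG00000166851.15; chromosome 16, 23677656 to 23690367), had 118 and 118 TPM in RPMI-8226-R, 131 and 122 TPM in RPMI-8226 and 85.1 and 87.6 TPM in the libraries labelled NCI-BL2171. Its small fall, -0.26 ± 0.06 (edgeR adjusted p = 0.0011), did not pass in log2(TPM + 1), where it was -0.10. AURKA, the kinase of spindle poles, did not pass between the RPMI lines, at 0.03 ± 0.08 (edgeR adjusted p = 0.74), with 49.1 and 46.3 TPM in RPMI-8226-R, 34.1 and 34.9 TPM in RPMI-8226 and 38.3 and 35.9 TPM in the libraries labelled NCI-BL2171. On the log2(TPM + 1) scale AURKA was 0.46 higher in RPMI-8226-R (limma adjusted p = 0.0024). TPX2, which activates Aurora A on microtubules, was lower in RPMI-8226-R, at -0.51 ± 0.06 (edgeR adjusted p = 1.9e-07), with 88.2 and 96.3 TPM in RPMI-8226-R, 103 and 97.9 TPM in RPMI-8226 and 74.5 and 78.0 TPM in the libraries labelled NCI-BL2171. The TPX2 levels of the RPMI lines lay close without overlap, and in log2(TPM + 1) the difference of -0.12 did not pass.

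Of the spindle checkpoint kinases, BUB1 and TTK were lower in RPMI-8226-R than in RPMI-8226, and BUB1B did not pass. BUB1 (ENSG00000169679.15; chromosome 2, 110637698 to 110678114) was the most abundant of the 39 in the RPMI lines, at 298 and 311 TPM in RPMI-8226-R and 384 and 382 TPM in RPMI-8226, against 197 and 220.1 TPM in the libraries labelled NCI-BL2171. RPMI-8226-R lay between the others without overlap, -0.62 ± 0.06 (edgeR adjusted p = 1.1e-08) against RPMI-8226 and 0.45 ± 0.06 (edgeR adjusted p = 8.2e-07) against the libraries labelled NCI-BL2171. BUB1B, which encodes the checkpoint protein BubR1, passed in no comparison and had 59.6 and 76.0 TPM in RPMI-8226-R, 56.1 and 55.0 TPM in RPMI-8226 and 57.8 and 62.2 TPM in the libraries labelled NCI-BL2171. TTK, the kinase MPS1 at the top of the checkpoint, had 18.3 and 17.9 TPM in RPMI-8226-R and 17.9 and 17.2 TPM in RPMI-8226, which overlapped, against 28.3 and 32.3 TPM in the libraries labelled NCI-BL2171. Its call against RPMI-8226, -0.27 ± 0.11 (edgeR adjusted p = 0.044), was lost under 10 of 15 settings, and the value was 0.04 in log2(TPM + 1). Both RPMI lines were lower than the libraries labelled NCI-BL2171, by -0.83 ± 0.11 in RPMI-8226-R and -0.56 ± 0.11 in RPMI-8226.

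Both measured genes of anaphase control were lower in RPMI-8226-R than in RPMI-8226, as were 37.2% of all genes. CDC20 (ENSG00000117399.14; chromosome 1, 43358955 to 43363203) had 120.3 and 108 TPM in RPMI-8226-R, 209.7 and 206 TPM in RPMI-8226 and 185 and 178 TPM in the libraries labelled NCI-BL2171. RPMI-8226-R was lowest without overlap, at -1.24 ± 0.07 (edgeR adjusted p = 4.9e-12) against RPMI-8226 and -0.88 ± 0.07 (edgeR adjusted p = 5.9e-10) against the libraries labelled NCI-BL2171. PTTG1, or securin, which holds separase inactive until anaphase (ENSG00000164611.13; chromosome 5, 160421822 to 160428744), had 159.9 and 158 TPM in RPMI-8226-R, 304 and 320.1 TPM in RPMI-8226 and 332 and 349 TPM in the libraries labelled NCI-BL2171. Its log2 fold change in RPMI-8226-R was -1.37 ± 0.07 (edgeR adjusted p = 3.4e-13) against RPMI-8226 and -1.27 ± 0.07 (edgeR adjusted p = 3.4e-13) against the libraries labelled NCI-BL2171, whereas RPMI-8226 against those libraries did not pass, at 0.10 ± 0.07 (edgeR adjusted p = 0.17). Both genes share sequence with near-identical copies, so that their levels are uncertain. CDC20 held 63.9 to 68.5% of the reads counted for CDC20 and CDC20P1 together. PTTG1 held 68.7 to 72.8% of those counted for PTTG1, PTTG2 and PTTG3P together. The same holds for KIF4A (53.2 to 59.7%, with KIF4B), AURKA (89.7 to 93.7%, with AURKAP1) and CCNB2 (96.2 to 96.8%, with CCNB2P1). Adding the copies to these 5 genes, a step chosen after the data were seen, changed none of their 15 calls. UBE2C had 0 to 3 reads, its copy UBE2CP5 had 22 to 52, and UBE2CP1 to UBE2CP4 had 0 to 9. All of these lie below 381 reads, the lowest count among the 39 tested genes of G2 and mitosis. Why UBE2C and its copies had so few reads was not tested.

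Of the 6 centromere and kinetochore genes, 3 were higher in RPMI-8226-R than in RPMI-8226, 2 were lower and 1 did not pass. Of all genes, 28.5% were higher and 37.2% lower. CENPE, the kinetochore motor that moves chromosomes to the spindle equator (ENSG00000138778.14; chromosome 4, 103105806 to 103198409), had 9.48 and 9.72 TPM in RPMI-8226-R, 5.54 and 4.91 TPM in RPMI-8226 and 10.7 and 15.4 TPM in the libraries labelled NCI-BL2171. The lines did not overlap in TPM, with 0.78 ± 0.09 (edgeR adjusted p = 8.4e-08) for RPMI-8226-R against RPMI-8226 and -1.44 ± 0.09 (edgeR adjusted p = 1.8e-12) for RPMI-8226 against the libraries labelled NCI-BL2171. CENPF, a large kinetochore protein, had 38.1 and 35.4 TPM in RPMI-8226-R, 27.3 and 30.6 TPM in RPMI-8226 and 21.5 and 19.1 TPM in the libraries labelled NCI-BL2171. It was higher in RPMI-8226-R than in RPMI-8226, at 0.39 ± 0.07 (edgeR adjusted p = 5.3e-05). The difference was 0.33 in log2(TPM + 1) (limma adjusted p = 0.029), but 0.02 after correction for effective length in edgeR. CENPA, the centromeric histone H3 variant (ENSG00000115163.15; chromosome 2, 26764289 to 26801067), had 40.6 and 38.4 TPM in RPMI-8226-R, 33.1 and 30.9 TPM in RPMI-8226 and 23.5 and 27.2 TPM in the libraries labelled NCI-BL2171. Between the RPMI lines it did not pass in CPM, at -0.01 ± 0.09 (edgeR adjusted p = 0.97), and passed at 0.30 in log2(TPM + 1) (limma adjusted p = 0.037).

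NDC80, NUF2 and SPC25 encode subunits of 1 complex, the NDC80 complex that binds microtubules, and their mRNAs did not move alike. NDC80 had 24.2 and 23.3 TPM in RPMI-8226-R, 39.4 and 39.9 TPM in RPMI-8226 and 35.7 and 34.3 TPM in the libraries labelled NCI-BL2171, and was lowest in RPMI-8226-R, at -0.97 ± 0.08 (edgeR adjusted p = 6.3e-10) against RPMI-8226. NUF2 had 75.2 and 74.8 TPM in RPMI-8226-R, 69.3 and 73.0 TPM in RPMI-8226 and 51.8 and 50.8 TPM in the libraries labelled NCI-BL2171. In CPM it was lower in RPMI-8226-R than in RPMI-8226, at -0.41 ± 0.07 (edgeR adjusted p = 3.7e-05), and this turned to 0.08, which did not pass, in log2(TPM + 1). SPC25 (ENSG00000152253.9; chromosome 2, 168834132 to 168913371) had 29.1 and 28.7 TPM in RPMI-8226-R, 20.04 and 20.7 TPM in RPMI-8226 and 60.9 and 70.8 TPM in the libraries labelled NCI-BL2171. It was the one subunit that was higher in RPMI-8226-R than in RPMI-8226 in CPM, at 0.29 ± 0.10 (edgeR adjusted p = 0.017), a call that was lost without RPMI-8226-R replicate 1 (0.19), without RPMI-8226 replicate 1 (0.21) and with the effective-length correction (0.18). Against the libraries labelled NCI-BL2171 SPC25 was lower in both lines, at -1.12 ± 0.10 (edgeR adjusted p = 1e-09) in RPMI-8226-R and -1.41 ± 0.10 (edgeR adjusted p = 3.4e-11) in RPMI-8226.

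All 5 genes grouped here as kinesins changed between the RPMI lines, 4 lower and 1 higher in RPMI-8226-R, where 65.6% of all genes were called. KIF20A, a motor of the central spindle and cytokinesis (ENSG00000112984.12; chromosome 5, 138178719 to 138187715), had 21.98 and 28.2 TPM in RPMI-8226-R, 62.5 and 61.4 TPM in RPMI-8226 and 27.4 and 29.2 TPM in the libraries labelled NCI-BL2171. Its fall against RPMI-8226, 3.28-fold at -1.71 ± 0.07 (edgeR adjusted p = 1.6e-14), was the largest among the 39 genes, while RPMI-8226-R and the libraries labelled NCI-BL2171 overlapped in TPM. KIF2C, a kinesin that takes microtubules apart at centromeres (ENSG00000142945.13; chromosome 1, 44739818 to 44767767), had 80.04 and 80.6 TPM in RPMI-8226-R, 174 and 171 TPM in RPMI-8226 and 173 and 178 TPM in the libraries labelled NCI-BL2171. RPMI-8226-R was lowest, at -1.45 ± 0.06 (edgeR adjusted p = 2e-14) against RPMI-8226 and -1.21 ± 0.06 (edgeR adjusted p = 1.1e-13) against the libraries labelled NCI-BL2171. KIF11, the motor that pushes spindle poles apart (ENSG00000138160.7; chromosome 10, 92593286 to 92655395), had 22.4 and 23.8 TPM in RPMI-8226-R, 14.2 and 12.8 TPM in RPMI-8226 and 12.3 and 13.1 TPM in the libraries labelled NCI-BL2171. Of these 5 genes it alone rose, at 0.42 ± 0.07 (edgeR adjusted p = 1.9e-05) against RPMI-8226. The motor gene CENPE, counted above with the kinetochore genes, was also higher, at 0.78 ± 0.09. KIF23, a motor of the midbody, had 42.6 and 51.4 TPM in RPMI-8226-R, 50.6 and 50.6 TPM in RPMI-8226 and 22.9 and 24.4 TPM in the libraries labelled NCI-BL2171. The RPMI lines overlapped in TPM, and the fall of -0.37 ± 0.07 (edgeR adjusted p = 6.5e-05) in CPM did not pass in log2(TPM + 1), where it was -0.11. KIF4A, a chromosome-bound motor, had 9.81 and 10.9 TPM in RPMI-8226-R, 9.50 and 9.30 TPM in RPMI-8226 and 5.32 and 5.93 TPM in the libraries labelled NCI-BL2171, with -0.32 ± 0.08 (edgeR adjusted p = 0.0018) for RPMI-8226-R against RPMI-8226 in CPM and 0.12, which did not pass, in log2(TPM + 1).

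Among 6 spindle microtubule proteins, 4 were lower in RPMI-8226-R than in RPMI-8226, 1 was higher and 1 did not pass. Of all genes, 37.2% were lower and 28.5% higher. HMMR, a spindle protein also known as a hyaluronan receptor, had 25.4 and 23.4 TPM in RPMI-8226-R, 34.2 and 33.7 TPM in RPMI-8226 and 22.5 and 23.5 TPM in the libraries labelled NCI-BL2171. RPMI-8226 stood above the other 4 libraries, -0.82 ± 0.08 (edgeR adjusted p = 6.8e-09) for RPMI-8226-R against it. DLGAP5, which binds and stabilises spindle fibres, had 23.0 and 23.4 TPM in RPMI-8226-R, 29.4 and 28.8 TPM in RPMI-8226 and 37.3 and 42.1 TPM in the libraries labelled NCI-BL2171. RPMI-8226-R was lowest, at -0.68 ± 0.07 (edgeR adjusted p = 4.9e-08) against RPMI-8226. NUSAP1, which bundles microtubules near chromosomes, had 74.1 and 84.3 TPM in RPMI-8226-R, 86.6 and 93.0 TPM in RPMI-8226 and 112 and 122 TPM in the libraries labelled NCI-BL2171, and its fall of -0.55 ± 0.06 (edgeR adjusted p = 2e-07) against RPMI-8226 did not pass in log2(TPM + 1), at -0.18. PRC1, which bundles the central spindle (ENSG00000198901.14; chromosome 15, 90966038 to 90995629), had 173 and 170.5 TPM in RPMI-8226-R, 170.5 and 186 TPM in RPMI-8226 and 135 and 144 TPM in the libraries labelled NCI-BL2171. The RPMI lines overlapped, and the fall of -0.27 ± 0.06 (edgeR adjusted p = 0.00087) in CPM did not pass in log2(TPM + 1), at -0.05.

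ASPM and CKAP2L depended on gene length. ASPM, a protein of spindle poles (ENSG00000066279.19; chromosome 1, 197084128 to 197146694), had 143 and 155 CPM in RPMI-8226-R, 99.4 and 106 CPM in RPMI-8226 and 30.8 and 29.4 CPM in the libraries labelled NCI-BL2171, so that it was higher in RPMI-8226-R than in RPMI-8226 in CPM, at 0.54 ± 0.07 (edgeR adjusted p = 6.4e-07). Its TPM were 18.4 and 20.2 in RPMI-8226-R, 24.4 and 24.9 in RPMI-8226 and 7.28 and 7.67 in the libraries labelled NCI-BL2171, so that the order of the RPMI lines was turned, at -0.34 in log2(TPM + 1) (limma adjusted p = 0.02). The deposited effective length of ASPM, the length over which its reads are spread given the transcripts found, was 7985 and 8400 bases in RPMI-8226-R, 3356 and 3364 in RPMI-8226 and 3945 and 3696 in the libraries labelled NCI-BL2171. CKAP2L, another spindle protein, had effective lengths of 3521 and 3242 bases in RPMI-8226-R, 1700 and 1532 in RPMI-8226 and 3399 and 2451 in the libraries labelled NCI-BL2171. Its TPM were 10.2 and 13.3 in RPMI-8226-R, 18.9 and 19.5 in RPMI-8226 and 6.30 and 10.6 in the libraries labelled NCI-BL2171. Between the RPMI lines it did not pass in CPM, at -0.04 ± 0.10 (edgeR adjusted p = 0.73), and was -1.04 with the effective-length offset in edgeR (adjusted p = 0.0022). On the log2(TPM + 1) scale it was -0.68 and did not pass (limma adjusted p = 0.051). The mean length differed between the RPMI lines by more than 1.2-fold in 5 of the 39 genes, with ratios of RPMI-8226-R to RPMI-8226 of 2.44 for ASPM, 2.09 for CKAP2L, 1.36 for CENPF, 1.29 for MKI67 and 1.22 for CENPE. Against the libraries labelled NCI-BL2171, ASPM was higher in both scales. In CPM it was 2.31 ± 0.08 (edgeR adjusted p = 5e-17) in RPMI-8226-R and 1.77 ± 0.08 (edgeR adjusted p = 5.4e-15) in RPMI-8226. In log2(TPM + 1) it was 1.26 (limma adjusted p = 5.8e-05) in RPMI-8226-R and 1.60 (limma adjusted p = 2.2e-05) in RPMI-8226. The ratio of mean ASPM lengths of RPMI-8226-R to those libraries was 2.14. Which transcripts were used in each line was not tested.

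**Figure D3:**
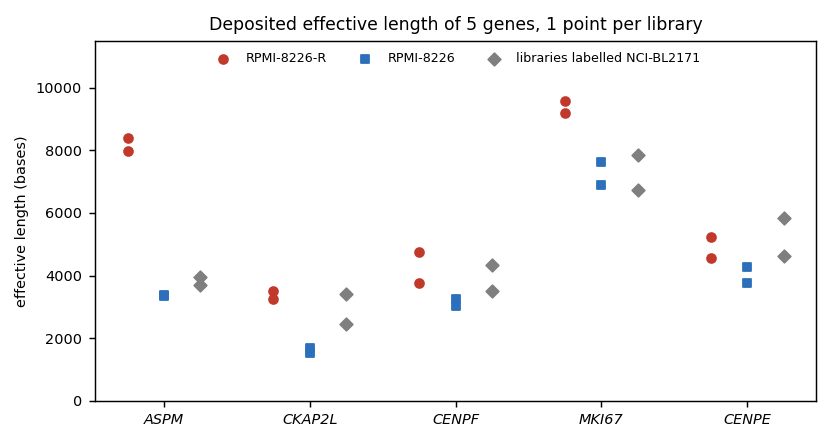
Deposited effective length in bases of the 5 genes whose mean length differed by more than 1.2-fold between the RPMI lines, with 1 point per library. The RPMI-8226-R libraries have ASPM lengths of 7985 and 8400 bases, above the other 4 libraries.

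Of the genes of chromosome structure, TOP2A was lower in RPMI-8226-R than in RPMI-8226 and MKI67 did not pass between them. TOP2A, the topoisomerase that untangles sister chromatids (ENSG00000131747.15; chromosome 17, 40388516 to 40417950), had 64.0 and 71.1 TPM in RPMI-8226-R, 116 and 109 TPM in RPMI-8226 and 90.9 and 102 TPM in the libraries labelled NCI-BL2171. RPMI-8226-R was lowest without overlap, at -1.02 ± 0.06 (edgeR adjusted p = 1.4e-11) against RPMI-8226 and -0.61 ± 0.06 (edgeR adjusted p = 2.1e-08) against the libraries labelled NCI-BL2171. MKI67, which encodes the proliferation marker Ki-67 that coats mitotic chromosomes (ENSG00000148773.14; chromosome 10, 128096659 to 128126385), had 12.2 and 14.2 TPM in RPMI-8226-R, 11.9 and 12.97 TPM in RPMI-8226 and 8.51 and 12.2 TPM in the libraries labelled NCI-BL2171. The 3 lines overlapped in TPM, and between the RPMI lines the log2 fold change was 0.07 ± 0.08 (edgeR adjusted p = 0.46). In CPM MKI67 was higher in both RPMI lines than in the libraries labelled NCI-BL2171. The rise was 0.58 ± 0.08 (edgeR adjusted p = 2.5e-06) in RPMI-8226-R and 0.51 ± 0.08 (edgeR adjusted p = 1.4e-05) in RPMI-8226. Neither passed in log2(TPM + 1), at 0.34 and 0.26, and the first did not pass with the effective-length offset (0.23). Of the cytokinesis genes, ANLN, the actin-binding scaffold of the cleavage furrow (ENSG00000011426.11; chromosome 7, 36389806 to 36453791), had 17.6 and 18.3 TPM in RPMI-8226-R, 28.0 and 28.3 TPM in RPMI-8226 and 45.8 and 40.2 TPM in the libraries labelled NCI-BL2171. The lines were ranked without overlap, RPMI-8226-R lowest, at -0.91 ± 0.07 (edgeR adjusted p = 5.1e-10) against RPMI-8226 and -1.21 ± 0.07 (edgeR adjusted p = 1.8e-12) against the libraries labelled NCI-BL2171. ECT2, the exchange factor that activates RhoA at the furrow, had 41.0 and 43.3 TPM in RPMI-8226-R, 37.5 and 38.1 TPM in RPMI-8226 and 23.6 and 21.2 TPM in the libraries labelled NCI-BL2171, and did not pass between the RPMI lines, at -0.09 ± 0.07 (edgeR adjusted p = 0.26).

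Against the libraries labelled NCI-BL2171, the RPMI lines gave different counts. In RPMI-8226-R 19 genes were higher, 16 were lower and 4 did not pass, where 77.4% of all genes were called, 39.2% higher and 38.2% lower. In RPMI-8226 27 were higher, 9 were lower and 3 did not pass, where 76.7% of all genes were called, 41.1% higher and 35.6% lower. The median log2 fold change of the 39 was 0.12 in RPMI-8226-R, against 0.00 over all genes, and 0.52 in RPMI-8226, against 0.09 over all genes. The TPM did not overlap with those of the libraries labelled NCI-BL2171 for 34 of the 39 genes in RPMI-8226-R, against 84.8% of all genes, and for 36 in RPMI-8226, against 86.4% of all genes. At 2-fold or more, 4 of the 39 were higher and 5 were lower in RPMI-8226-R, where 50.4% of all genes were called, and 9 were higher and 2 were lower in RPMI-8226, where 48.7% were called. These 2 comparisons share the libraries labelled NCI-BL2171, and each shares 1 RPMI line with the comparison of the RPMI lines. In CPM the largest rises in RPMI-8226-R were those of FOXM1, ASPM and CDC25B (1.56). The largest falls were those of CDK1, PTTG1 and, level with each other, ANLN and KIF2C. In log2(TPM + 1) the rise of ASPM (1.26) was smaller than those of CDC25B (1.67) and CCNB1 (1.56). In RPMI-8226 the largest rises were those of ASPM, FOXM1 and CCNB2 (1.42), and the largest falls those of CENPE, SPC25 and CCNA2 (-0.59). Genes lower in both lines were CDK1, CCNA2, TTK, CENPE, SPC25, NUSAP1, DLGAP5 and ANLN. In RPMI-8226 the fall of NUSAP1 (-0.20) did not pass without RPMI-8226 replicate 1 (-0.14), without NCI-BL2171 replicate 2 (-0.16) or with the effective-length offset. The fall of DLGAP5 there (-0.17) did not pass without RPMI-8226 replicate 1 (-0.12), RPMI-8226 replicate 2 (-0.22) or NCI-BL2171 replicate 2 (-0.13). The fall of CENPE in RPMI-8226-R did not pass in log2(TPM + 1) or log2(TPM + 0.1). The cell type genes given above differ in the same comparisons.

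**Figure D4:**
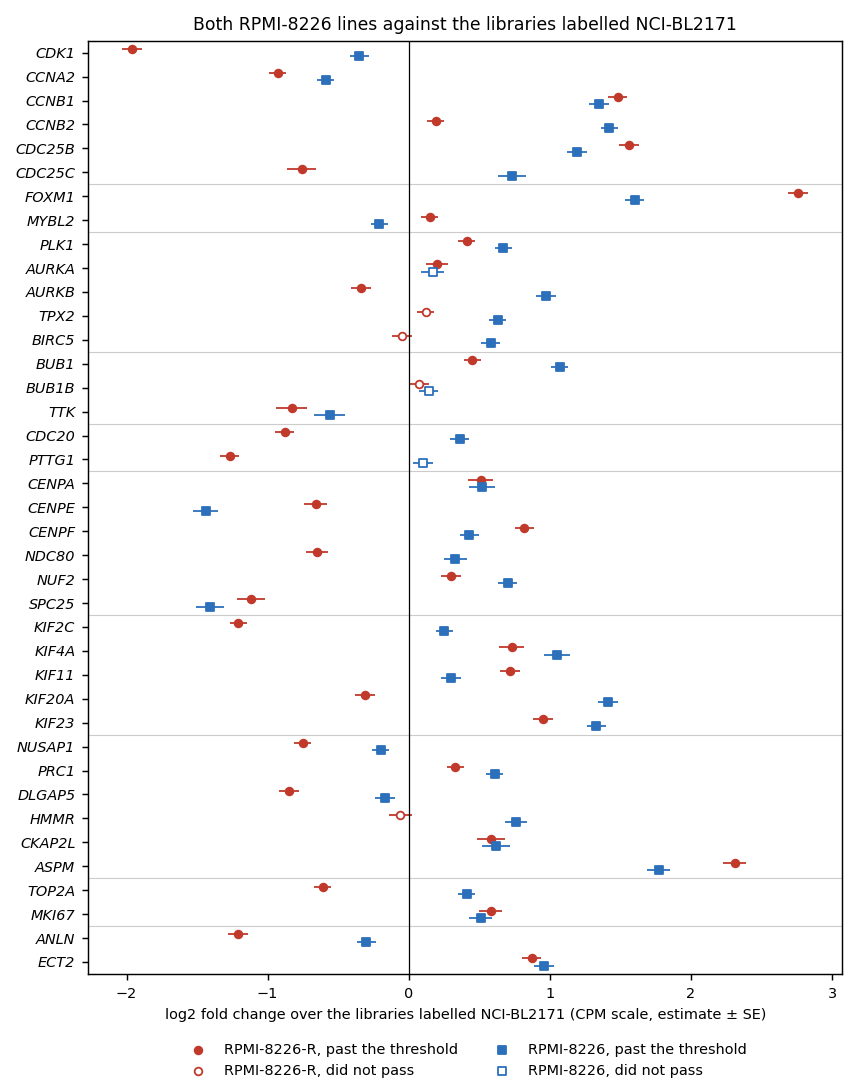
Log2 fold change in CPM, as estimate ± SE, of each gene in RPMI-8226-R (red circles) and RPMI-8226 (blue squares) over the libraries labelled NCI-BL2171, with open symbols where the test was not passed. FOXM1, at 2.76 in RPMI-8226-R and 1.60 in RPMI-8226, and ASPM lie farthest right, and CDK1 in RPMI-8226-R, at -1.96, lies farthest left.

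Summed over the 40 genes, the level was 2712 and 2788 TPM in RPMI-8226-R, 3455 and 3438 TPM in RPMI-8226 and 2832 and 2973 TPM in the libraries labelled NCI-BL2171. RPMI-8226 stood above the other 4 libraries. The median level went the other way between the RPMI lines, at 53.9 and 56.2 TPM in RPMI-8226-R and 49.2 and 47.6 TPM in RPMI-8226, where a sum weighs its most abundant genes most. Summed over 30 genes of DNA replication and S phase, the level was 2833 and 2949.9 TPM in RPMI-8226-R, 2152 and 2118 TPM in RPMI-8226 and 2429 and 2542 TPM in the libraries labelled NCI-BL2171. The log2 ratio of the G2 and mitosis sum to the S phase sum, which does not depend on scaling between libraries, was -0.06 and -0.08 in RPMI-8226-R, 0.68 and 0.70 in RPMI-8226 and 0.22 and 0.23 in the libraries labelled NCI-BL2171. These sums were given no test.

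**Figure D5:**
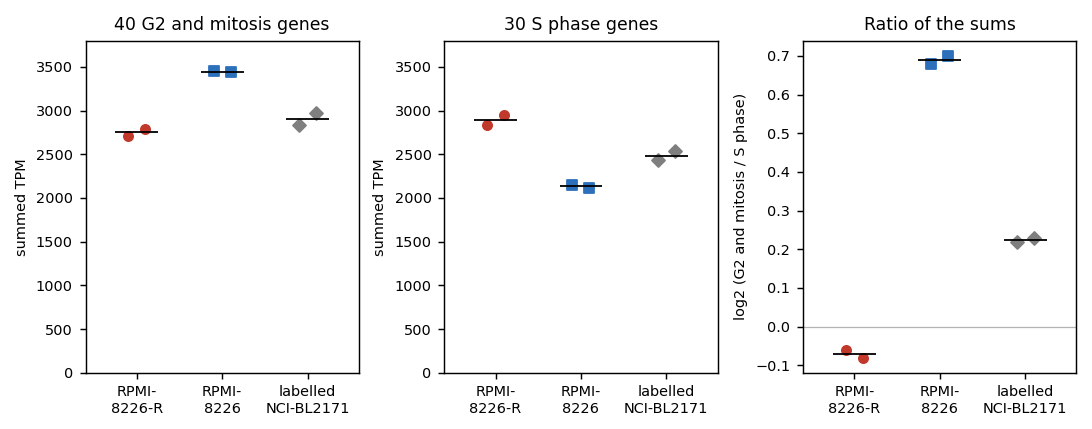
Summed TPM of the 40 G2 and mitosis genes, summed TPM of 30 S phase genes and the log2 ratio of the sums, with 1 point per library and a bar at the mean of each line. RPMI-8226-R is lowest in the ratio, at -0.06 and -0.08, and RPMI-8226 is highest, at 0.68 and 0.70.

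Ratios within a library, with pairs chosen after their values were seen, show the same levels without any scaling. The TPM ratio of CCNB1 to CCNB2 was 1.33 and 1.30 in RPMI-8226-R, 0.548 and 0.561 in RPMI-8226 and 0.539 and 0.635 in the libraries labelled NCI-BL2171, so that cyclin B1 exceeded cyclin B2 in both RPMI-8226-R libraries and in none of the other 4. CDK1 to CCNB1 was 0.403 and 0.393 in RPMI-8226-R, 1.30 and 1.31 in RPMI-8226 and 4.38 and 3.97 in the libraries labelled NCI-BL2171. FOXM1 to MYBL2 was 0.830 and 0.879 in RPMI-8226-R, 0.491 and 0.489 in RPMI-8226 and 0.141 and 0.138 in the libraries labelled NCI-BL2171. In these pairs and in those that follow, RPMI-8226-R did not overlap with either other line. Except for CCNB1 to CCNB2, RPMI-8226 and the libraries labelled NCI-BL2171 did not overlap either. CDC25B to CDC25C was 8.28 and 8.12 in RPMI-8226-R, 2.24 and 2.22 in RPMI-8226 and 1.21 and 1.97 in the libraries labelled NCI-BL2171. AURKA to AURKB was 0.657 and 0.555 in RPMI-8226-R, 0.234 and 0.238 in RPMI-8226 and 0.453 and 0.415 in the libraries labelled NCI-BL2171. NUF2 to NDC80 was 3.10 and 3.21 in RPMI-8226-R, 1.76 and 1.83 in RPMI-8226 and 1.45 and 1.48 in the libraries labelled NCI-BL2171, although their proteins pair within the complex. KIF11 to KIF20A was 1.02 and 0.843 in RPMI-8226-R, 0.227 and 0.208 in RPMI-8226 and 0.446 and 0.450 in the libraries labelled NCI-BL2171. BUB1 to BUB1B was 5.001 and 4.09 in RPMI-8226-R, 6.86 and 6.94 in RPMI-8226 and 3.404 and 3.54 in the libraries labelled NCI-BL2171.

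In 7 further lists of the cell cycle, 142 genes in all, 59 were higher in RPMI-8226-R than in RPMI-8226, 56 were lower and 27 did not pass. The median log2 fold change was -0.03, and 28.5% of all genes were higher and 37.2% lower. The 142 include the 30 genes of DNA replication and S phase, whose median was 0.25. On the log2(TPM + 1) scale the split was 72 higher and 29 lower, against 7062 and 4584 over all genes. Of 17 genes of the anaphase-promoting complex and its regulators, 7 were higher and 7 were lower. The subunits ANAPC7 and ANAPC2 rose most, at 1.55 ± 0.07 for ANAPC7 and 1.24 ± 0.10 for ANAPC2. The partner of UBE2C, the chain-elongating enzyme UBE2S, had 99.1 and 105 TPM in RPMI-8226-R, against 287 and 297 TPM in RPMI-8226, and fell most, at -1.92 ± 0.07 (edgeR adjusted p = 2.6e-15), with the inhibitor FBXO5 next at -1.07 ± 0.07. Of 20 genes of cohesin, condensin and separase, 11 were higher, led by the cohesin regulators PDS5A (1.03) and PDS5B (0.93), and 6 were lower, led by the cohesin subunit RAD21 (-0.79) and its protector sororin, CDCA5 (-0.70). Of 26 further kinetochore, checkpoint and chromosomal passenger genes, 10 were higher, led by SKA3 (1.48) and MIS12 (1.28) of the outer kinetochore, and 9 were lower, led by CENPU (-1.02) and CDCA8 (-0.93), which encodes borealin, a partner of AURKB and BIRC5. Of 24 genes of spindle, motors and cytokinesis, 5 were higher and 15 were lower, with a median of -0.29. KIF20B (1.60) and KIF18B (0.95), both kinesins, rose most, and FAM83D (-1.84), a spindle protein, and STMN1 (-0.68), a tubulin-binding protein, fell most.

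Of 13 genes that hold CDK1 back or act in the G2 checkpoint, 4 were higher in RPMI-8226-R than in RPMI-8226 and 7 were lower. Of all genes, 28.5% were higher and 37.2% lower. GADD45B, a stress-induced protein that can bind CDK1, had 26.2 and 30.7 TPM in RPMI-8226-R, against 361 and 392.1 TPM in RPMI-8226, and its log2 fold change was -4.18 ± 0.08 (edgeR adjusted p = 4.7e-20). GADD45G of the same family had 0.620 and 0.427 TPM in RPMI-8226-R, against 28.5 and 27.7 TPM in RPMI-8226, at -6.15 ± 0.21 (edgeR adjusted p = 5e-16). The checkpoint kinase ATR rose by 1.41 ± 0.13 and SFN, the 14-3-3 sigma protein that keeps CDK1 and cyclin B in the cytoplasm, by 1.30 ± 0.09. Among 12 genes of MuvB, DREAM and the pocket proteins, 5 were higher, led by E2F4 (1.42) and its dimer partner TFDP1 (1.19), and 4 were lower, led by LIN52 (-0.86) and MYBL1 (-0.44). Neither LIN52 nor MYBL1 kept its call under every setting. Of the 30 genes of DNA replication and S phase, 17 were higher and 8 were lower, with a median of 0.25. RFC3, a subunit of the clamp loader, had 76.9 and 82.0 TPM in RPMI-8226-R, against 19.4 and 21.0 TPM in RPMI-8226, and rose most, at 1.66 ± 0.07 (edgeR adjusted p = 3.6e-14), followed by the histone chaperone subunit CHAF1A (1.13). The cyclin E genes CCNE2 (-1.73) and CCNE1 (-1.21), which act at the entry into S phase, fell most.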

How the data were processed

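The 6 untreated libraries, 2 per line, were made from total RNA after removal of ribosomal RNA. Expected counts of reads, as deposited by the authors, and TPM, the authors' own values per the file headers, are listed with lengths and effective lengths for 61544 genes. The submitters' processing notes name GRCh38.p13 as build. Not given in the sources used here are the quantifier, its annotation and its use of strand, so reads of overlapping, antisense or near-identical genes may be divided in ways not checked. Lengths and effective lengths, another deposited unit, in bases, served only for an offset and for the comparison of lengths.

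Pseudoautosomal Y copies, 46 per library, were added to their X copies, which left 61498 genes, and a table of Ensembl gene IDs gave symbols for 61399 of them. Positions were taken from GENCODE 29 (GRCh38). Expected counts were rounded to whole numbers. The test was the two-sided quasi-likelihood F test of edgeR 4.0.16 (R 4.3.3) in a single robust fit of the 6 libraries (TMM, filterByExpr with a minimum count of 10 and total of 15, 3 residual degrees of freedom, Benjamini-Hochberg over 20081 genes at 0.05). The biological coefficient of variation was 6.81%. Between the libraries of a line the chi-square per gene was 10.2 in RPMI-8226-R, 3.34 in RPMI-8226 and 5.19 in the libraries labelled NCI-BL2171, and none looked like a repeat deposit. The procedure was also run on simulated data in which few genes changed. It recovered 61.2 to 74.6% of 1.5-fold changes, 86.6 to 94% of 2-fold changes and 98.5 to 100% of 4-fold changes. Because most genes are called in the real comparisons, this run cannot show how the normalisation performs there. Alternatives were DESeq2 1.42.0 size factors and Wald test, limma 3.58.1 voom, limma-trend on log2(TPM + 1) or log2(TPM + 0.1), an effective-length offset, no filter, 2 lines alone, a replicate block and each library left out.

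The 40 genes and the further lists were chosen with earlier results of these data known, so nothing adjusted over a list alone and no list test is given. Genes named in full are 14 preset members, the 3 largest rises and falls per comparison, members against the common direction, and up to 2 rises and 2 falls of each further list whose higher line averaged 1 TPM or more.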

Additional observations from a re-analysis of the deposited data

How the results depend on the processing

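Of the calls among the 39 genes, 15 of 24 falls and 5 of 8 rises were kept under all 15 settings for RPMI-8226-R against RPMI-8226, 13 of 16 falls and 13 of 19 rises for RPMI-8226-R against the libraries labelled NCI-BL2171, and 6 of 9 falls and 22 of 27 rises for RPMI-8226 against those libraries. With one library left out, rises numbered 7 to 9 and falls 23 to 24 in the first comparison, 16 to 19 and 16 to 16 in the second, and 27 to 28 and 6 to 9 in the third. With the effective-length offset, 5 genes rose in RPMI-8226-R against RPMI-8226. Of the 142 genes of the further lists, 29 fell there in log2(TPM + 1) and 28 in log2(TPM + 0.1), against 56 in CPM. For RPMI-8226 against the libraries labelled NCI-BL2171, 44 of them rose and 57 fell in log2(TPM + 1), against 63 and 51 in CPM.

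Among genes called in CPM, the sign between the RPMI lines turned in log2(TPM + 1) and log2(TPM + 0.1) for CCNA2 (0.01 in both), TTK (0.04 in both), NUF2 (0.08 in both), KIF4A (0.12 and 0.13) and ASPM (-0.34 and -0.36), and for ASPM with the effective-length offset (-0.69). For RPMI-8226 against the libraries labelled NCI-BL2171, it turned for KIF2C (-0.03 in both). The log2 ratio of summed levels was -0.33, -0.08 and 0.25 in the 3 comparisons in TPM and -0.50, -0.04 and 0.46 in CPM, while medians of log2(TPM + 1) differed by 0.17, 0.39 and 0.21, the first 2 with the opposite sign. The log2 ratio to S phase genes differed by -0.76, -0.30 and 0.46, and by -0.60, -0.23 and 0.37 as means of log2(TPM + 1). With 150 bases before the start in place of 250, the E-box was found for 5.88% of the member genes and 6.75% of all, so that the excess was lost, and the E2F motif for 11.8% and 8.02%. The causes of these shifts were not tested.

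Replicate numbers shared by the lines did not pair the libraries, with correlations of 0.0129, -0.00351 and 0.0327 between the replicate differences of 2 lines. Numbers were taken from the sample titles, and the deposited files of NCI-BL2171 are numbered the other way round, which would turn the sign of the second and the third coefficient. With a replicate block, 8 genes rose and 24 fell between the RPMI lines, 19 and 16 in RPMI-8226-R against the libraries labelled NCI-BL2171, and 28 and 9 in RPMI-8226 against those libraries, where AURKA passed. UBE2C had 0 reads in NCI-BL2171 replicate 2 only, where 3 counts allow a level of up to 0.125 CPM, counting error only.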

Other observations

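In the further lists set against the libraries labelled NCI-BL2171, which share those libraries between both comparisons, 74 of 142 genes were higher in RPMI-8226-R and 47 were lower, and 63 were higher in RPMI-8226 and 51 were lower. Over all genes 39.2% were higher and 38.2% lower in RPMI-8226-R, and 41.1% were higher and 35.6% lower in RPMI-8226. Of the 13 genes that hold CDK1 back or act in the G2 checkpoint, 8 were higher and 3 lower in RPMI-8226-R, and 9 were higher and 1 lower in RPMI-8226. SFN had 48.1 and 51.6 TPM in RPMI-8226-R and 15.3 and 15.4 TPM in RPMI-8226, against 0.417 and 0.419 TPM in the libraries labelled NCI-BL2171. GADD45B had 26.2 and 30.7 TPM in RPMI-8226-R and 361 and 392.1 TPM in RPMI-8226, against 3.42 and 2.78 TPM in the libraries labelled NCI-BL2171, so that RPMI-8226 was highest. The CDK inhibitor gene CDKN1C had 22.8 and 32.2 TPM in RPMI-8226-R and 250.6 and 250.9 TPM in RPMI-8226, against 127 and 115 TPM in the libraries labelled NCI-BL2171. It was lower in RPMI-8226-R than in those libraries, at -2.39 ± 0.10 (edgeR adjusted p = 4e-12), and higher in RPMI-8226, at 1.26 ± 0.09 (edgeR adjusted p = 3.8e-09).

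Of the 20 genes of cohesin, condensin and separase, 16 were higher and 4 lower in RPMI-8226-R, and 12 were higher and 5 lower in RPMI-8226. STAG1, a cohesin subunit, had 13.2 and 13.3 TPM in RPMI-8226-R and 5.49 and 6.36 TPM in RPMI-8226, against 1.43 and 1.85 TPM in the libraries labelled NCI-BL2171, which lay below all RPMI libraries. Of the 17 genes of the anaphase-promoting complex and its regulators, 8 were higher and 7 lower in RPMI-8226-R, and 5 were higher and 10 lower in RPMI-8226, with ANAPC2 among the largest rises in both lines (2.52 in RPMI-8226-R and 1.28 in RPMI-8226). Of the 26 further kinetochore and checkpoint genes, 9 were higher and 12 lower in RPMI-8226-R, and 7 were higher and 14 lower in RPMI-8226. ZWINT, an outer kinetochore protein, was lower in both lines (-1.73 in RPMI-8226-R and -1.54 in RPMI-8226), and CENPM was higher in both (2.29 in RPMI-8226-R and 1.79 in RPMI-8226). Of the 24 genes of spindle, motors and cytokinesis, 7 were higher and 9 lower in RPMI-8226-R, and 11 were higher and 6 lower in RPMI-8226. Of the 12 genes of MuvB, DREAM and pocket proteins, 9 were higher and 2 lower in RPMI-8226-R, and 6 were higher and 4 lower in RPMI-8226. Of the 30 S phase genes, 17 were higher and 10 lower in RPMI-8226-R, and 13 were higher and 11 lower in RPMI-8226. CDC45, a part of the replicative helicase, had 21.7 and 21.5 TPM in RPMI-8226-R and 14.4 and 19.0 TPM in RPMI-8226, against 156 and 184 TPM in the libraries labelled NCI-BL2171. The part of cell type in these differences was not tested.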
